A study of Mus musculus with 6 samples.

Results

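The 9 genes described here carry the insulin signal from the cell surface to the nucleus. They are the receptor gene Insr, the adaptors Irs1 and Irs2, the phosphoinositide 3-kinase (PI3K) subunits Pik3r1 and Pik3ca, the kinases Akt1 and Akt2, and the transcription factors Foxo1 and Foxo3. They were chosen by name as the core of the pathway, and all 9 were found among the 27179 gene IDs of each count file. RNA-seq counts came from satellite cells, the stem cells of muscle, isolated by flow cytometry from muscle of mice on a high-fat diet (3 libraries) or a chow diet (3 libraries). All mice were wild type on the C57Bl/6N background, and in the labels diet was the only difference. At least 50000 cells went into each replicate. Age, length of feeding and whether a replicate was 1 animal or a pool are not stated in those labels, so that p-values here describe library-to-library variation, part of which may be technical.

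In this pathway the insulin receptor, a tyrosine kinase, phosphorylates the adaptor proteins Irs1 and Irs2. These recruit PI3K, a dimer of a regulatory subunit such as the product of Pik3r1 and a catalytic subunit such as the product of Pik3ca, whose lipid product brings Akt to the membrane to be activated. Akt phosphorylates FoxO transcription factors and so keeps them out of the nucleus, and FoxO factors that are free of this control can raise the transcription of Insr and Irs2. In satellite cells, PI3K and Akt signalling are known for their part in the exit from quiescence, and FoxO factors for their part in keeping it.

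The promoters of Irs2, Pik3r1 and Foxo1, which were lower with the high-fat diet, and that of Irs1 as the paralog of Irs2, are printed because these genes carry the main differences. Each is the 250 bases before the gene's outermost RefSeq start (GRCm38.p6), 5′ to 3′ on the gene's own strand. The windows are chr8:11008930-11009179 (minus strand) for Irs2, chr1:82291440-82291689 (minus strand) for Irs1, chr13:101768218-101768467 (minus strand) for Pik3r1 and chr3:52268087-52268336 (plus strand) for Foxo1. Capitals mark matches to the motifs described after the sequences.
Irs2: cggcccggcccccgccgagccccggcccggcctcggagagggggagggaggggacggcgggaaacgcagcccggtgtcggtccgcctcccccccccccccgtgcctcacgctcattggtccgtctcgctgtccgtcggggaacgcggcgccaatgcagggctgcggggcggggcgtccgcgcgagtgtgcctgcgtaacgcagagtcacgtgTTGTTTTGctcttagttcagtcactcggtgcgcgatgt
Irs1: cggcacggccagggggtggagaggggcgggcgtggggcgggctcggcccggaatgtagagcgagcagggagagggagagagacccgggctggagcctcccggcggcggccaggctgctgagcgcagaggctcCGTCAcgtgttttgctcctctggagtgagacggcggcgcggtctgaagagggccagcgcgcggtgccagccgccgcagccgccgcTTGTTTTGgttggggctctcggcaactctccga
Pik3r1: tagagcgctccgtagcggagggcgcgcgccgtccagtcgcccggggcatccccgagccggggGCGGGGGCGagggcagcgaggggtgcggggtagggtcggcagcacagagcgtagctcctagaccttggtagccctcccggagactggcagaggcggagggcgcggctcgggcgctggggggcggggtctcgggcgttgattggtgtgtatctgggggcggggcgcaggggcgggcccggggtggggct
Foxo1: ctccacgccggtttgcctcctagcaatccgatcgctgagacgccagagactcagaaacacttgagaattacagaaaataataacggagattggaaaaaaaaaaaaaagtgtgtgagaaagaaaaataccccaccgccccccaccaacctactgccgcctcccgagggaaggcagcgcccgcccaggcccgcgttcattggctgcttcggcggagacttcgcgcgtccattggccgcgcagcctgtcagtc

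Searched on both strands were the FoxO element TGTTTAC, the insulin response element CAAAACAA, the cyclic AMP response element TGACGTCA and its half-site TGACG, which overlap each other, the AP-1 site TGANTCA, the Egr site GCGNGGGCG and the myogenic E-box CAGCTG. Bases just after the RefSeq start were found in a GENCODE transcript of the gene for Pik3r1 and Foxo1, but not for Irs2, Irs1 and Pik3ca. Distances for these last genes thus rest on the RefSeq start alone. The insulin response element, here as TTGTTTTG on the printed strand, began 38 bases before the RefSeq start of Irs2 and 33 bases before that of Irs1. It occurred in 2.21% of 32851 promoter windows of the same length. The Egr site began 188 bases before the start of Pik3r1 (4.70% of windows held one), and a cyclic AMP half-site lay 118 bases before that of Irs1 (17.8% of windows). The window of Foxo1 held no match to any of these letters. Of the other members with an entry, Akt1 had the FoxO element 161 bases before its outermost start (3.17% of windows) and Pik3ca an AP-1 site at 97 bases (6.75%). Foxo3 also held an Egr site, at 157 bases, and a cyclic AMP half-site at 64 bases, and Akt2 a half-site at 44 bases. Pik3r1, Akt1 and Akt2 have further RefSeq starts inside the gene, and counts per gene do not separate the transcripts of these starts. Before such inner starts, Pik3r1 had a cyclic AMP half-site at 35 bases. Akt2 had a half-site at 66 bases and a myogenic E-box at 229 bases (13% of windows). A match is a description of the letters only.

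With the high-fat diet, Pik3r1, Irs2 and Foxo1 had lower levels in all 3 libraries than in any chow library, at 2.21-fold, 1.92-fold and 1.69-fold. Pik3ca, the partner of Pik3r1, was 1.30-fold higher, also with no overlap. The other 5 genes overlapped between the diets. By edgeR's quasi-likelihood F test, adjusted by Benjamini-Hochberg over all 13202 genes tested, 0 of the 9 members passed at 0.05, where 34 genes (0.258%) passed in all. At an unadjusted p under 0.05 there were 3 of 9 members, all lower, against 7.65% of all genes tested in either direction and 3.95% lower. The diets did not overlap for 4 of 9 members, against 15.3% of all genes tested. Of these 4, 3 were lower (7.87% of all genes tested) and 1 was higher (7.42%). Over the members the median log2 fold change was -0.38, and over all genes tested it was -0.01. DESeq2 and limma-voom each called 2 members, Pik3r1 and Irs2, where they called 198 genes (1.50%) and 99 genes (0.750%) in all. All levels are CPM, counts scaled to a common library size with the trimmed mean of M values (TMM) as the correction factor. Each member passed the filter on low counts, with at least 307 reads in every library. In such bulk samples, fewer cells of a type and less RNA per cell cannot be told apart.

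**Figure D1:**
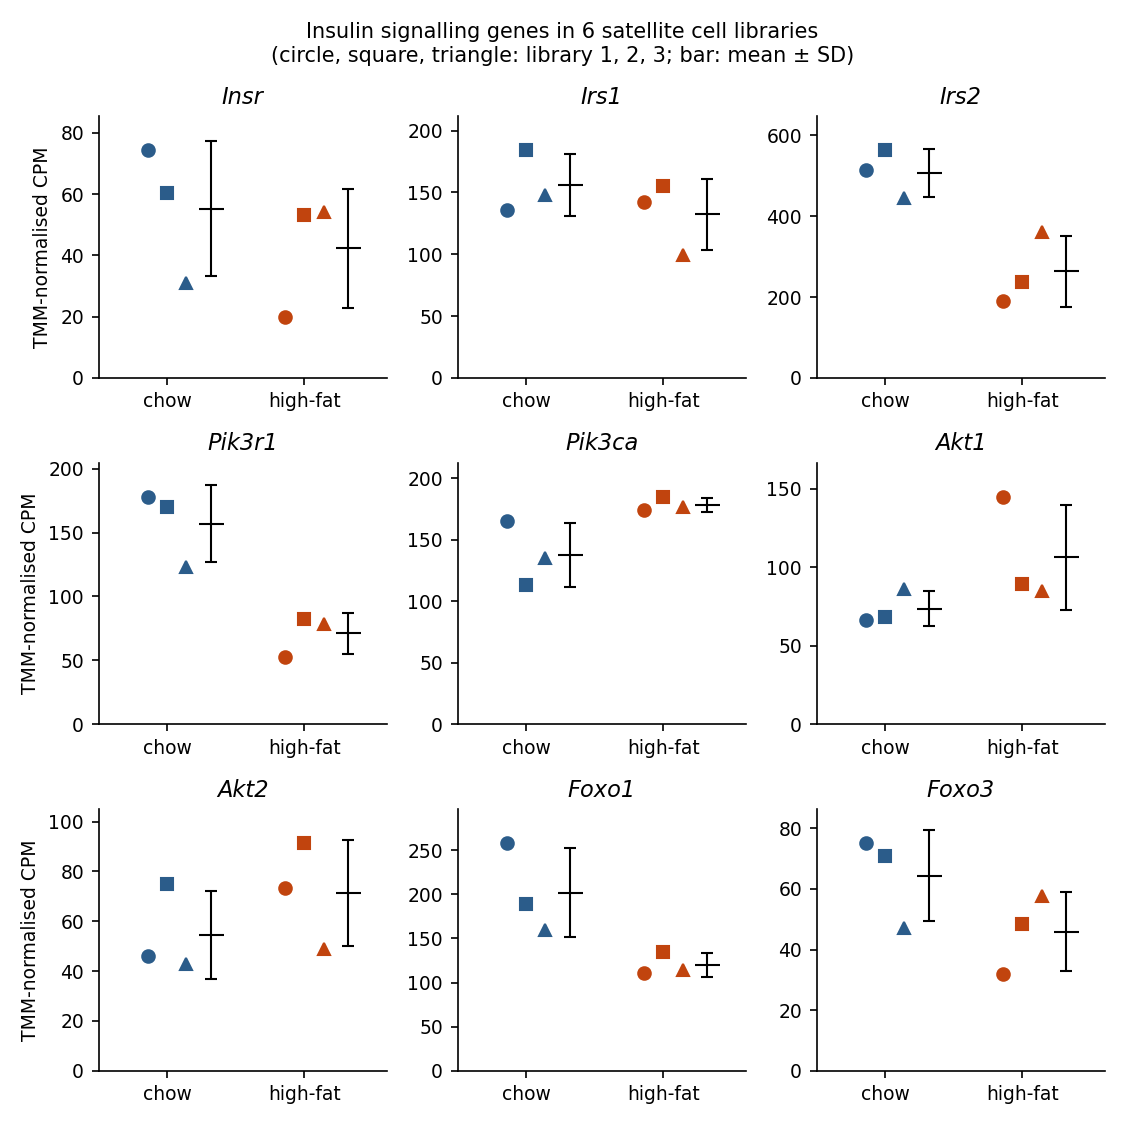
Level of each of the 9 genes in TMM-normalised CPM (y axis, from 0) in each chow and high-fat diet library (symbols mark libraries 1, 2 and 3; bars are the mean ± SD of 3). The high-fat diet points of Irs2, Pik3r1 and Foxo1 all lie under the chow points, those of Pik3ca all lie above, and the other 5 genes overlap.

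Insr (chromosome 8, 3150922 to 3279649, GRCm38) encodes the insulin receptor. It was at 19.97, 53.1 and 54.1 CPM in high-fat diet libraries 1, 2 and 3 and at 74.3, 60.3 and 31.1 CPM in chow libraries 1, 2 and 3. High-fat diet library 1 and chow library 3 were the lowest of their diets, and the diets overlapped. Its log2 fold change was -0.38 (SE 0.42, 95% interval -1.28 to 0.52, adjusted p = 0.961). Leaving out high-fat diet library 1 gave -0.03 and leaving out chow library 1 gave -0.10. High-fat diet library 1 and chow library 3 stood apart over all genes tested, where their log2 CPM correlated with other libraries at 0.725 to 0.802, against 0.795 to 0.842 among the other 4 (correlations across genes, which are not independent replicates). Insr had the widest spread of the 9 genes, with a biological coefficient of variation of 37.8%, against 20.5% to 30.1% for the other members and a median of 24.9% over the 3575 genes that averaged 40 CPM or more.

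Of the adaptors, Irs2 had no overlap between the diets and Irs1 did overlap. Irs2 (chromosome 8, 10984681 to 11008929), whose promoter is the first printed above, was at 191, 238 and 361 CPM in the high-fat diet libraries and at 514, 563 and 444 CPM in the chow libraries. Every high-fat diet value lay under every chow value, and high-fat diet library 3 came closest to chow. The means were 263 ± 87.7 and 507 ± 59.8 CPM (SD, n = 3 each), a log2 fold change of -0.94 (SE 0.22, 95% interval -1.41 to -0.47, edgeR adjusted p = 0.146, rank 67 of 13202 by p). It passed without high-fat diet library 3 (-1.24, adjusted p = 0.0131) but in none of the other 5 fits with 1 library left out, and without both libraries that stood apart it was -0.84 (adjusted p = 0.456). The span of Irs2 also holds 9530052E02Rik, which had at most 0.0539 CPM.

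Irs1 (chromosome 1, 82233105 to 82291439) is the paralog that shares the insulin response element near its RefSeq start. It was at 142, 155 and 99.7 CPM with the high-fat diet and at 136, 184 and 148 CPM with chow. The diets overlapped, and the log2 fold change was -0.24 (SE 0.22, 95% interval -0.72 to 0.24, adjusted p = 0.939). It was -0.07 without high-fat diet library 3 and -0.10 without chow library 2. The interval does not reach the value of Irs2, although their intervals overlap each other.

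The PI3K subunits had log2 fold changes of opposite sign. Pik3r1 (chromosome 13, 101680761 to 101768217) encodes the alpha regulatory subunit, which stabilises the catalytic subunit and holds it inactive until it binds a phosphorylated adaptor. It was at 52.8, 82.2 and 78.3 CPM in the high-fat diet libraries and at 178, 170.3 and 123 CPM in the chow libraries. The highest high-fat diet library thus stayed well under the lowest chow library. The means were 71.1 ± 15.9 and 157 ± 29.9 CPM (SD, n = 3 each). Of the 9 genes it had the smallest p, with a log2 fold change of -1.14 (SE 0.24, 95% interval -1.67 to -0.62, edgeR adjusted p = 0.0948, rank 50 of 13202). Over the 6 fits with 1 library left out it ran from -1.29 to -0.96 with adjusted p from 0.128 to 0.366, and without both libraries that stood apart it was -1.11 (adjusted p = 0.242).

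Pik3ca (chromosome 3, 32397065 to 32466112) encodes the alpha catalytic subunit. It was at 174, 185 and 177 CPM with the high-fat diet and at 165, 113 and 135 CPM with chow. The high-fat diet libraries lay close together and just above the highest chow library. The log2 fold change was 0.38 (SE 0.20, 95% interval -0.06 to 0.81, adjusted p = 0.735), and it was 0.25 without chow library 2. Kcnmb3, whose span overlaps that of Pik3ca, had at most 3.01 CPM.

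The Akt kinases both had positive log2 fold changes with overlapping diets. Akt1 (chromosome 12, 112653821 to 112674884), the isoform most tied to growth and survival, was at 145, 89.3 and 84.7 CPM with the high-fat diet and at 66.3, 68.5 and 86.4 CPM with chow. High-fat diet library 1 was far above the rest, and high-fat diet library 3 was just under chow library 3. The log2 fold change of 0.53 (SE 0.26, 95% interval -0.04 to 1.10, adjusted p = 0.697) was 0.25 without high-fat diet library 1. Akt2 (chromosome 7, 27591552 to 27640826), the isoform most tied to glucose uptake, was at 73.3, 91.3 and 48.9 CPM with the high-fat diet and at 45.9, 74.9 and 42.7 CPM with chow. In both diets library 2 was the highest. Its log2 fold change was 0.38 (SE 0.32, 95% interval -0.30 to 1.07, adjusted p = 0.928), and 0.16 without high-fat diet library 2, 0.24 without chow library 3 and 0.68 without chow library 2. The annotation also places Gm30150 and Mir6939 within the span of Akt1 and Gm38485 within that of Foxo3, so that reads of these spans are uncertain.

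Both FoxO genes were lower on average with the high-fat diet. Foxo1 (chromosome 3, 52268337 to 52350109), whose promoter is the last printed above, was at 110.3, 135 and 114 CPM in the high-fat diet libraries and at 258, 189 and 159 CPM in the chow libraries. The 3 high-fat diet values lay close together under all chow values, while the chow values spread widely. The means were 119.7 ± 13.0 and 202 ± 50.9 CPM (SD, n = 3 each), a log2 fold change of -0.75 (SE 0.22, 95% interval -1.22 to -0.29, edgeR adjusted p = 0.286, rank 182). Without chow library 1, the highest, it was -0.53, and without both libraries that stood apart -0.83 (adjusted p = 0.660 and 0.501). DESeq2 and limma-voom did not call it either (adjusted p = 0.0748 and 0.199). Foxo3 (chromosome 10, 42181845 to 42276695), the second main FoxO factor of muscle, was at 31.9, 48.3 and 57.6 CPM with the high-fat diet and at 75.1, 70.9 and 47.2 CPM with chow. Chow library 3 lay among the high-fat diet libraries. Its log2 fold change was -0.49 (SE 0.32, 95% interval -1.17 to 0.20, adjusted p = 0.848), and -0.27 without high-fat diet library 1.

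**Figure D2:**
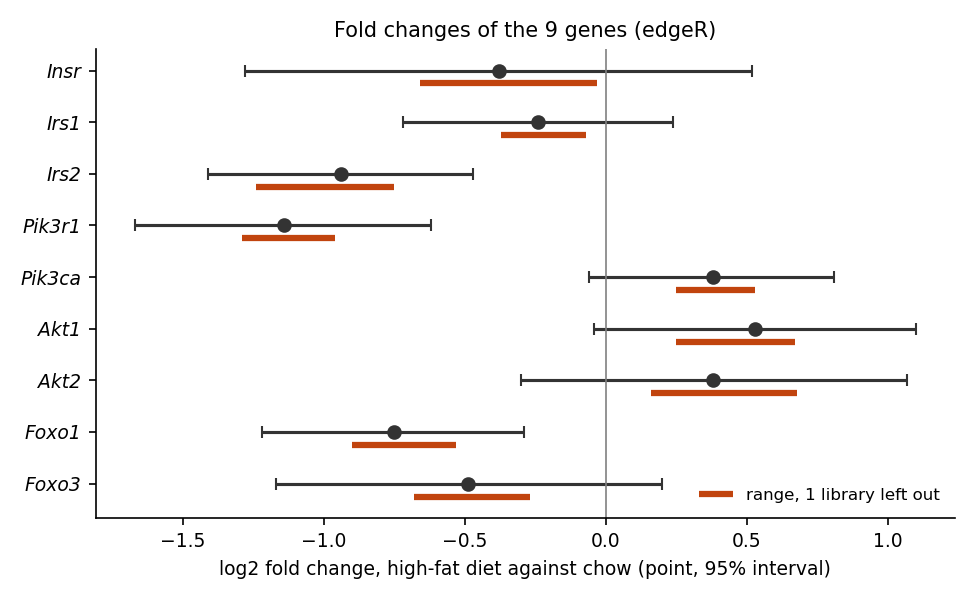
Log2 fold change (x axis, high-fat diet against chow) of each gene, as edgeR's estimate with its 95% interval in black and the range over the 6 fits with 1 library left out in orange. The intervals of Irs2, Pik3r1 and Foxo1 lie wholly under 0 before any adjustment for the number of genes, and the orange ranges of all 9 genes keep their sign.

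The sign of each of the 9 log2 fold changes was the same in all 20 alternatives tried, which included other scalings, filters and tests and the removal of libraries. Of these 20, the looser threshold on the adjusted p reused the main fit, so that its signs could not differ. All 20 drew on the same libraries. For Insr and Irs1 the size came close to 0 in some alternatives (-0.03 and -0.07 at the nearest).

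Compared per kilobase of exon, which allows genes of different length to be set side by side, the order of the levels differed between the diets. With chow, Irs2 was the highest at 80.2 ± 9.46 CPM per kilobase (SD, n = 3), above Akt1 at 27.4 ± 4.09 with no overlap. Foxo1 (23.3 ± 5.87), Pik3r1 (20.8 ± 3.95), Irs1 (17.1 ± 2.72), Pik3ca (15.2 ± 2.87), Akt2 (11.3 ± 3.67), Foxo3 (8.70 ± 2.03) and Insr (5.91 ± 2.35) followed in the same unit. From Akt1 down, each of these overlapped the next in the order. With the high-fat diet Irs2 was at 41.6 ± 13.9 and Akt1 at 39.6 ± 12.5 CPM per kilobase, and their libraries overlapped. Pik3ca came next at 19.7 ± 0.613, apart from its neighbours on both sides. Akt2 (14.7 ± 4.40), Irs1 (14.5 ± 3.18) and Foxo1 (13.8 ± 1.50) overlapped in sequence, and Pik3r1 (9.40 ± 2.11) stood under Foxo1 without overlap. Foxo3 (6.20 ± 1.75) and Insr (4.53 ± 2.08) were again the lowest. Foxo1 thus went from the third place to the sixth and Pik3r1 from the fourth to the seventh. Exon lengths are those of GENCODE M21, and a library made of fragments from only part of a transcript would shift these levels.

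**Figure D3:**
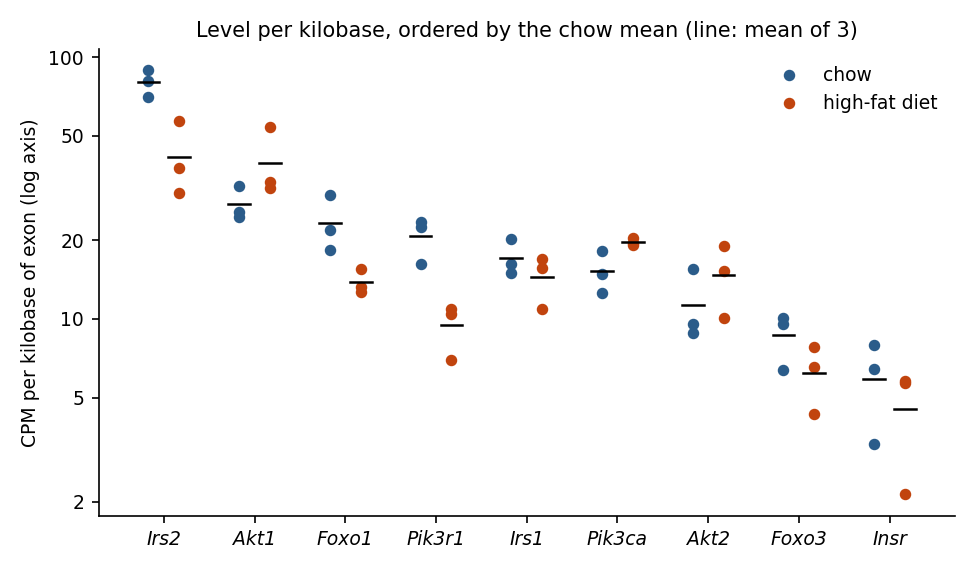
Level of the 9 genes in CPM per kilobase of exon (log axis), ordered by the chow mean, with 1 point per library (blue chow, orange high-fat diet) and a line at each mean. Irs2 stands above all other genes with chow (80.2) and meets Akt1 with the high-fat diet (41.6 and 39.6), and Pik3r1 and Foxo1 drop in the order.

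Ratios of 2 genes within a library need no scaling between libraries, and 5 were compared by an exact permutation test over the 6 libraries, whose smallest possible two-sided p is 0.1. The log2 ratio of Pik3r1 to Pik3ca counts was -1.72, -1.17 and -1.18 in the high-fat diet libraries and 0.11, 0.59 and -0.13 in the chow libraries. The groups did not overlap, and the difference was -1.54 (exact p = 0.1, adjusted over the 5 ratios p = 0.5). Pik3r1 was lower and Pik3ca higher in every high-fat diet library, so that this separation and its p were fixed in advance. The test thus adds no support to the values of the single genes. The difference ran from -1.70 to -1.34 when 1 library was left out. Per kilobase of exon, Pik3r1 was at 1.37 times the level of Pik3ca with chow and at 0.469 times with the high-fat diet (geometric means of 3 libraries).

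The other ratios overlapped between the diets. The log2 ratio of Irs2 to Irs1 was 0.43, 0.61 and 1.86 with the high-fat diet and 1.92, 1.61 and 1.58 with chow. High-fat diet library 3 lay within the chow range while the other high-fat diet libraries lay under it, and the difference was -0.74 (exact permutation p = 0.3). It was -1.18 with high-fat diet library 3 left out and -0.47 with high-fat diet library 1 left out. Akt2 to Akt1 differed by -0.11 (exact p = 0.8), a difference that turned to 0.09 without high-fat diet library 1 and to 0.19 without chow library 2. Foxo3 to Foxo1 differed by 0.23 (exact p = 0.7), with 0.01 at the lowest when 1 library was left out. The ratio of Insr to Igf1r, the related receptor of insulin-like growth factors, differed by -0.38 (exact p = 0.7) and by 0.19 without high-fat diet library 1. Per kilobase, Insr was at 0.174 times the level of Igf1r with chow and 0.134 times with the high-fat diet. Igf1r itself averaged 364 ± 33.7 CPM in the chow and 354 ± 41.3 CPM in the high-fat diet libraries, a log2 fold change of -0.04.

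**Figure D4:**
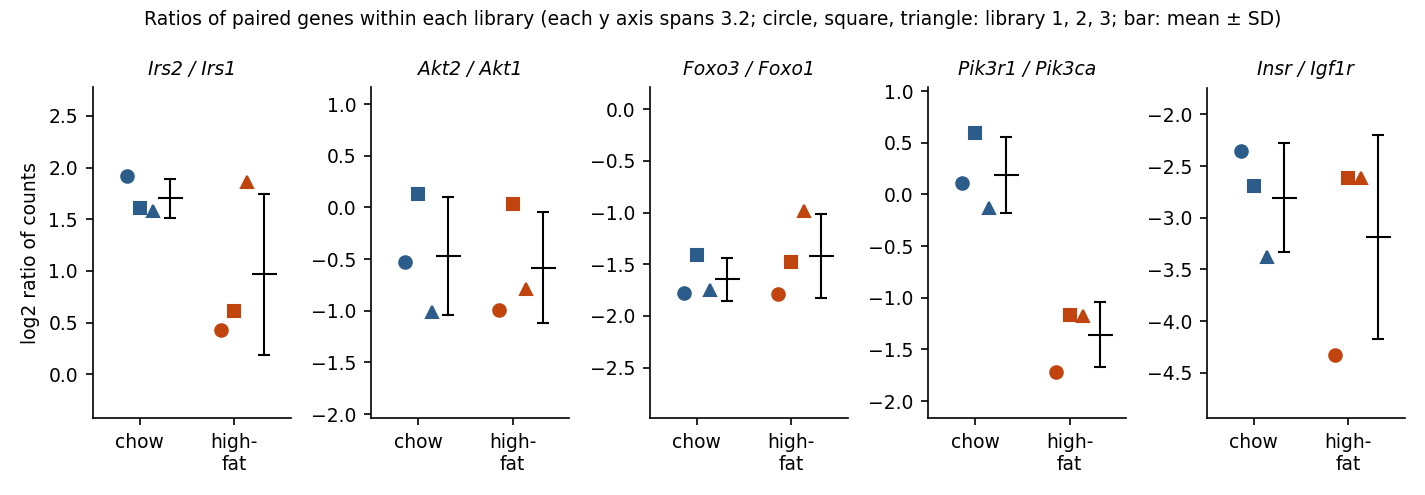
Log2 ratio of the counts of 2 genes within each library (y axes span the same length), for 5 pairs, with 1 symbol per library and bars for mean ± SD. For Pik3r1 to Pik3ca the high-fat diet libraries (-1.72 to -1.17) lie under the chow libraries (-0.13 to 0.59), and the other 4 pairs overlap.

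The members' patterns over the 6 libraries were compared by the root-mean-square difference of log2 CPM after each gene was centred on its mean. Among the 36 pairs of members the closest were Irs2 and Pik3r1 (0.230), Pik3r1 and Foxo1 (0.283) and Foxo1 and Foxo3 (0.285), and the farthest were Insr and Akt1 (0.988). Libraries are shared by all of these values. Of the 7002 other genes considered (those averaging 10 CPM or more, with a symbol), those most like Pik3r1 were Setbp1 (0.141) and Egr2 (0.179), an immediate early transcription factor, with a median over all of 0.772. Most like Irs2 were Aldh6a1 (0.0582) and Slc7a2 (0.109), among the nearest to Foxo1 was Fam124a (0.147), and most like Insr were Acadvl (0.107) and Myd88 (0.170). The nearest to Irs1 were Rprd2 (0.0755) and Sp1 (0.0802), to Pik3ca Gatad2a (0.0626) and Zfp397 (0.0861), and to Foxo3 Kmt5b (0.105) and Herpud1 (0.111). For Akt1 they were Tex10 (0.0705) and Lrrfip1 (0.0963), and for Akt2 Pld1 (0.0628) and Arf2 (0.0933). None of these was a member, and 0 passed edgeR's test (lowest adjusted p = 0.147).

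The rest of the pathway was read from lists of 124 other genes by role, of which 109 passed the filter on low counts. Adjusted over all genes, edgeR called 0 of 109. At an unadjusted p under 0.05 there were 7 of 109 (4 higher and 3 lower), a share near the 7.65% of all genes tested. Of the 109, 4 were higher and 4 lower without overlap between the diets, against 7.42% and 7.87% of all genes tested. DESeq2 and limma-voom each called 1 of 109, Socs3, beside 1.50% and 0.750% of all genes tested. The median log2 fold change of the 109 was 0.00, with 54 negative and 55 positive. Of the members 6 were negative and 3 positive, and no test was made of the difference between the lists.

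Of 14 receptor and adaptor genes tested, 8 were positive and 6 negative (median 0.17). Gab2, a docking protein that binds PI3K, was at 49.0, 72.5 and 27.0 CPM with the high-fat diet and at 12.7, 30.2 and 9.42 CPM with chow. These values overlapped, with 1.50 as the log2 fold change (SE 0.50, edgeR adjusted p = 0.388). Grb2, the adaptor that links receptors to Ras, was at 93.4 ± 17.8 and 62.9 ± 15.1 CPM (log2 fold change 0.57, adjusted p = 0.654) with no overlap.

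Of 12 PI3K subunits and related lipid kinases 7 were tested, of which 6 were positive and 1 negative (median 0.58). All 7 overlapped between the diets, and 0 had an unadjusted p under 0.05. The regulatory subunit gene Pik3r2 had a log2 fold change of 0.10 (SE 0.39). Pik3r3, another regulatory subunit, averaged 24.2 ± 13.8 CPM in the chow and 36.2 ± 11.4 CPM in the high-fat diet libraries (log2 fold change 0.58, adjusted p = 0.917). Pik3c3, the lipid kinase of autophagy, was at 4.29 ± 4.87 and 9.03 ± 3.63 CPM (log2 fold change 1.07, SE 1.07, adjusted p = 0.955).

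Of 23 genes of Akt and the kinases above and below it, 12 were negative and 11 positive (median -0.04). Tsc1, a part of the complex that restrains mTOR, averaged 34.3 ± 7.02 CPM in the chow and 17.1 ± 9.99 CPM in the high-fat diet libraries with no overlap (log2 fold change -1.01, adjusted p = 0.716). Rps6kb1, the ribosomal S6 kinase, was at 117 ± 28.5 and 155 ± 30.6 CPM (adjusted p = 0.781).

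Among 22 tested brakes on the pathway (14 negative, 8 positive, median -0.12), Socs3 had the smallest p. Socs3 is induced by cytokines and can block Irs proteins. It was at 88.3, 93.8 and 169 CPM with the high-fat diet and at 265, 313 and 248 CPM with chow, so that every high-fat diet library lay under every chow library. Its log2 fold change was -1.23 (SE 0.25, edgeR adjusted p = 0.0658), and it passed without high-fat diet library 3 (-1.59, adjusted p = 0.00296). Grb10, an adaptor that inhibits the receptor, was at 599 ± 63.8 CPM in the high-fat diet and 468 ± 60.9 CPM in the chow libraries (log2 fold change 0.36, SE 0.16, adjusted p = 0.643). Its high-fat diet libraries all lay above its chow libraries, at the nearest by 532 against 531 CPM.

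FoxO factors and regulators other than the members had a median of 0.07 over 14 genes (4 negative, 10 positive). Foxk1, a forkhead factor of the insulin response, averaged 56.1 ± 12.4 CPM in the chow and 99.8 ± 42.9 CPM in the high-fat diet libraries (log2 fold change 0.83, adjusted p = 0.479). Stk4, a kinase that phosphorylates FoxO factors, was at 18.1 ± 7.58 and 29.8 ± 16.0 CPM (adjusted p = 0.890).

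For FoxO target genes the median was -0.08 over 29 tested (17 negative, 12 positive). The list also holds targets that FoxO factors can repress, such as Ccnd1, so that this median does not measure FoxO activity. Cdkn1a, a cell cycle inhibitor, was at 58.8, 81.9 and 80.05 CPM with the high-fat diet and at 103, 154 and 139 CPM with chow, a log2 difference of -0.84 (SE 0.24, adjusted p = 0.279). Gadd45a, a growth arrest gene, was at 223, 236 and 245 CPM and at 369.6, 291 and 402 CPM (-0.59, SE 0.17, adjusted p = 0.291). Both had every high-fat diet library under every chow library. Ccnd1, the cyclin D1 gene that FoxO factors can repress, was the only target with an unadjusted p under 0.05 in the other direction (66.3 to 130.4 CPM, log2 fold change 0.98). It had every high-fat diet library above every chow library, and is named after its value was seen.

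**Figure D5:**
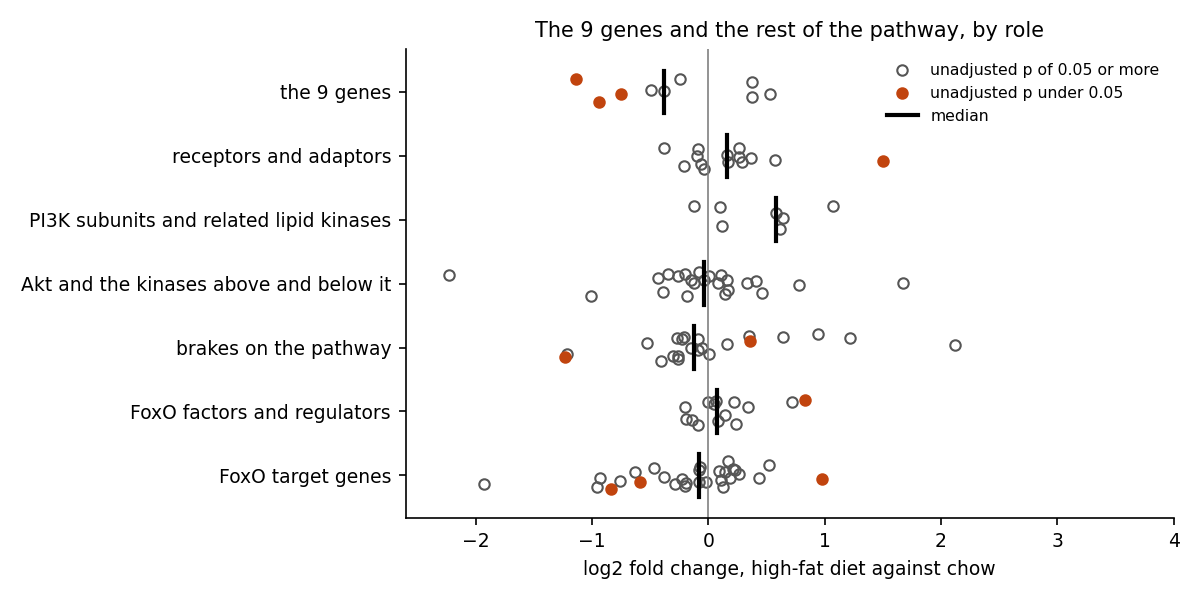
Log2 fold change (x axis, high-fat diet against chow) of the 9 genes and of 109 other pathway genes by role, 1 circle per gene, filled where the unadjusted p is under 0.05, with a bar at each list's median. The 3 filled circles among the 9 genes are all negative, and the lists' medians run from -0.12 for the brakes to 0.58 for the PI3K subunits, beside -0.38 for the 9 genes.

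Other features of the libraries moved with the diets, and their part in the lower Irs2, Pik3r1, Foxo1 and Socs3 was not tested. The 26 genes of the immediate early and dissociation stress list, Socs3 among them, summed to between 13516 and 18432 CPM in the high-fat diet libraries and between 27829 and 34739 CPM in the chow libraries, with 8 called lower, 0 called higher and a median log2 fold change of -1.03. Over all 13202 genes tested, 22 were called lower and 12 higher (0.258% in all), with a median of -0.01. Sums of the 12 satellite cell markers, all detected, overlapped (4851 to 5953 CPM for the high-fat diet, 5113 to 5985 CPM for chow). Single markers differed within these sums. Pax7 was lower (means of 234 against 402 CPM, log2 fold change -0.78, edgeR adjusted p = 0.180), as was Fgfr4 (172 against 240 CPM). Itga7 (369 against 245 CPM) and Chrdl2 (436 against 296 CPM) were higher. At an unadjusted p under 0.05, 2 of the 12 were higher and 2 lower, and 0 were called. Over all genes tested, the share under that p was 7.65% in either direction and 3.95% lower. Endothelial markers summed to 266 to 461 and 308 to 395 CPM, and those of fibro-adipogenic progenitors to 691 to 903 and 519.7 to 707 CPM. Sums of smooth muscle and pericyte markers overlapped too. The most abundant, Mcam, was at 69.6 ± 19.0 and 43.2 ± 11.9 CPM. Of the 8 markers in that list, 5 had negative and 3 positive log2 fold changes (median -0.29). Adipocyte markers summed to 92.0 to 158 and 117 to 205 CPM, with Plin1, Lep and Retn at 0 in all 6 libraries. Immune markers summed to 11.3 to 27.5 and 19.2 to 52.9 CPM, with Adgre1, C1qa and Cd3e among those at 0. Myofibre markers (142 to 161 against 94.0 to 112 CPM) and Schwann cell markers (195 to 247 against 142 to 187 CPM) did not overlap between the diets. The 2 most abundant genes were Hspa1b and Egr1 for the stress list, Sdc4 and Myf5 for satellite cells, Tek and Cdh5 for endothelial cells, Dpt and Col15a1 for fibro-adipogenic progenitors, Mcam and Acta2 for smooth muscle, Fabp4 and Lpl for adipocytes, Cd68 and Lyz2 for immune cells, Actn3 and Atp2a1 for myofibres and Pmp22 and Mbp for Schwann cells. Most of the myofibre sum was Actn3, while Acta1 averaged 5.82 CPM in the chow and 5.36 CPM in the high-fat diet libraries.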

How the data were processed

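The authors deposited 1 table of raw counts per library, keyed by Entrez gene ID and not normalized. The submitters' processing notes name Bowtie2, featureCounts, GRCm38 and mm10, while versions, strand setting and the handling of multiply mapped reads are not given in the sources used here. Per the labels' protocols, ribosomal RNA was depleted and 75-bp single reads were sequenced. Totals ran from 14930394 to 18217818 counts per library, so that 3 counts, the floor for a gene at 0, correspond to 0.165 to 0.201 CPM (counting error only, with reads that carry no molecular identifiers). Every pair of libraries differed by more than sampling noise.

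IDs were paired with symbols through the RefSeq table of GRCm38.p6 (25275 matched), the source of coordinates and promoters (8 members had a promoter entry, Insr none). The analysis used R 4.3.3 and edgeR 4.0.16 (filterByExpr at a minimum count of 10, TMM, quasi-likelihood F test, two-sided, diet as the only factor, called at a Benjamini-Hochberg adjusted p under 0.05), limma 3.58.1 and DESeq2 1.42.0. The test was checked on simulated counts. Members, lists, motifs, named genes and tests were chosen with earlier results of these data known. Of each role list the 2 genes with the smallest p were named, since none was called, and of each member the 2 genes most like it were found (1 near Foxo1 is not reported here). Ratios used counts plus 0.5.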

Additional observations from a re-analysis of the deposited data

How the results depend on the processing

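Over all genes, 163 passed with no filter, 198 with DESeq2, 99 with limma-voom, 112 with sample quality weights, 17 with the exon length correction (chosen after seeing the data), 1 without both libraries that stood apart, and 9 to 44 with 1 library left out (fewest without high-fat diet library 2). The count of members called went from 0 to 2 (Pik3r1 and Irs2) with no filter, DESeq2, limma-voom and limma-voom with quality weights, to 1 (Pik3r1) at an adjusted p under 0.1, and ran from 0 to 1 with 1 library left out, where Irs2 passed without high-fat diet library 3. Other pathway genes called went from 0 to 3 with no filter (Socs3, Gab2 and Ccnd1), to 1 (Socs3) with DESeq2, both forms of limma-voom, robust dispersions, the replicate block and an adjusted p under 0.1, and ran from 0 to 1 with 1 library left out. The cause of these differences was not tested.

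Replicate numbers are shared between the diets in the labels. Deviations of same-numbered libraries correlated at 0.0245, 0.0346 and -0.0261, and those of other pairs across the diets at -0.0556 to 0.0332. With deviations taken from means of 3 libraries, these values cannot exclude a batch shared by same-numbered libraries. With the replicate block 45 genes and 0 members passed, with log2 fold changes of -1.15 for Pik3r1 (adjusted p = 0.0870) and -0.99 for Irs2 (adjusted p = 0.0852). An exact test by sign flips of same-numbered pairs as a replicate block gave p = 0.25 for the ratio of Pik3r1 to Pik3ca, the smallest that 3 pairs allow. The separation of both genes between the diets fixed this outcome in advance as well.

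With 1 library left out, the difference in log2 ratio ran from -0.42 to 0.19 for Akt2 to Akt1 (reversed to 0.09 without high-fat diet library 1 and to 0.19 without chow library 2), from -0.67 to 0.19 for Insr to Igf1r (reversed to 0.19 without high-fat diet library 1), from -1.18 to -0.47 for Irs2 to Irs1, from 0.01 to 0.41 for Foxo3 to Foxo1 and from -1.70 to -1.34 for Pik3r1 to Pik3ca. No scaling moved the median of all genes by more than 0.1. At 3 libraries a diet, the 95% intervals of the 6 members without a p under 0.05 hold both 0 and differences of over 1.5-fold.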
